A study of Mus musculus with 24 samples.

Results

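Flavopiridol was set against its vehicle, DMSO, in reactivated mouse Th2 cells. The comparison used 3 of the 24 arrays of the series, chosen by their labels as reactivated Th2 cells with DMSO, with 1 µM flavopiridol and with 10 µM flavopiridol. Each condition was measured on 1 array, so no difference between these arrays has a replicate check. On every array the sample was in vitro differentiated cells of female C57BL/6 mice, labelled with Cy3, and the common reference was naive T cells (CD4+CD62L+CD25-CD44lo) from lymph nodes and spleens of the same strain and sex, labelled with Cy5. Both flavopiridol arrays were labelled as 6 hr of treatment. The DMSO array was labelled 24 hr in its title and 6 hr in its source name, so its time is unclear and a difference of time cannot be told apart from the drug. How cells were reactivated, and how many mice gave them, is not given in the sources used here. The series addressed what P-TEFb, the kinase that flavopiridol inhibits, and BET proteins, which JQ1 inhibits, contribute to gene expression in T helper cells.

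P-TEFb, the complex of Cdk9 with a T-type cyclin, releases RNA polymerase II that has paused just after a gene's start, and polymerase that is not released makes little full-length mRNA. Flavopiridol blocks Cdk9 and, less selectively, other cyclin-dependent kinases. When a Th2 cell meets antigen again, signals from its antigen receptor reach NFAT, NF-kB and AP-1 factors, which switch on immediate early genes and then cytokines. Il4, Il5 and Il13, the cytokines that drive antibody class switching to IgE, eosinophil growth and mucus production, are the hallmark of these cells, and Gata3 is the transcription factor that defines them.

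The promoters of 6 genes that the results turn on are shown as the 150 bases before the gene's start, read 5′ to 3′ on the gene's strand, from RefSeq on build GRCm38.p6. Il4 (chr11:53618666-53618815, minus strand), Il13 (chr11:53634703-53634852, minus strand) and Il5 (chr11:53720644-53720793, plus strand) lie in the Th2 cytokine cluster and were lower with the drug. Nfkbia (chr12:55492648-55492797, minus strand), which encodes the inhibitor of NF-kB, was lower too. Fos (chr12:85473740-85473889, plus strand) and Egr4 (chr6:85513590-85513739, minus strand), immediate early genes, were higher. Capitals mark TATAAA at -40 to -20, TGANTCA (a motif of AP-1), GGG followed by 3 of any base and TTCC (of NF-kB), TGGAAA (of NFAT) or TGACG (of CREB and ATF factors), the last 4 searched on both strands, so that some are printed as their reverse complements, and TATAAA on the gene's strand. In Nfkbia the marked run is TGGAAA and the NF-kB motif overlapping.
Il4: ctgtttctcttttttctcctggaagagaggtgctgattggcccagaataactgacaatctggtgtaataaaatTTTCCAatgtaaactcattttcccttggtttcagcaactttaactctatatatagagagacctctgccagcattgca
Il13: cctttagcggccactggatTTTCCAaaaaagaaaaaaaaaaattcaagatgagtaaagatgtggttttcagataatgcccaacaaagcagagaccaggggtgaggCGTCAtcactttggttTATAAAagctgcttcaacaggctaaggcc
Il5: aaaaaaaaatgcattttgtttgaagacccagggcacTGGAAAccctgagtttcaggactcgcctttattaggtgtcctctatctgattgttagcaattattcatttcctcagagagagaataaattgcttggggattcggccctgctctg
Nfkbia: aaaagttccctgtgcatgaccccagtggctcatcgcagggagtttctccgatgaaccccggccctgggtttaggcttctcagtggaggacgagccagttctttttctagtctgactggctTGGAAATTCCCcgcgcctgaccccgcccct
Fos: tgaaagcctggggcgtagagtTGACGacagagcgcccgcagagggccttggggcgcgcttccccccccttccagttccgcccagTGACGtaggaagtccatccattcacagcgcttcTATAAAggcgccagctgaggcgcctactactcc
Egr4: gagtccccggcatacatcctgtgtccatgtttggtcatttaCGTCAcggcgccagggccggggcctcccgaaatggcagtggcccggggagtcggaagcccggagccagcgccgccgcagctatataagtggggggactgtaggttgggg

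The matches began at -77 for TGGAAA in Il4, at -131 and -114 for the same motif in Il13 and Il5, and at -29 for TATAAA and -45 for TGACG in Il13. In Fos, TATAAA began at -33 and TGACG at -129 and -66, and in Egr4 TGACG began at -109. In Nfkbia the NF-kB motif began at -29 and TGGAAA at -30. A match of letters describes the sequence only. Of 32841 promoters in the table, 250 bases long before the start, TATAAA in its window was held by 1.99%, TGANTCA by 6.75%, the NF-kB motif by 4.65%, TGGAAA by 18.6% and TGACG by 17.8%. Among promoters of genes lower at both doses, 2174 genes with 2687 promoters, the shares were 1.53%, 4.39%, 5.58%, 15.4% and 31.6%. Among those of genes higher at both doses, 884 genes with 1184 promoters, they were 1.69%, 4.73%, 5.91%, 15.8% and 21.2%. All genes described had 1.6%, 4.69%, 5.2%, 15.3% and 25.7%, so TGACG had the widest gap between the lower and the higher genes, and these shares were not tested.

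Levels are given as the log2 ratio of sample to naive reference on an array, after loess normalization, and changes as the difference of that ratio from the DMSO array. A gene was described when the scanner software put its Cy3 signal well above background with DMSO or on both flavopiridol arrays, and was called lower or higher when it differed at least 2-fold from DMSO in the same direction at both doses. Of 12581 genes described, 2694 (21.4%) were lower, 1108 (8.81%) were higher and 8779 were not called. Among them 847 were lower and 174 higher by at least 4-fold at both doses, and 69 were lower and 5 higher by at least 16-fold. The median change was -0.23. Of the lower genes, 323 were not well above background on either flavopiridol array. For such genes the drop is given as a bound, "at least N-fold", the lowest of the drops at either dose in the Cy3 channel alone and in the ratio, and is open to dye bias because dyes were not swapped.

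These counts are relative to the bulk of genes on each array. In Cy3 the software put 50.4% of probes well above background on the DMSO array, 41.5% at 1 µM and 38.5% at 10 µM, while in the Cy5 reference the share was 51.2%, 52.9% and 53.1%. Spike-in RNA lay at -0.84, 0.82 and 0.95 on the same arrays after loess. With each array centred on its spike-ins, 13 genes were higher and 9607 lower, with a median change of -1.98. All 2694 lower genes stayed below 0 at both doses by that scaling, and 111 of the 1108 higher genes stayed above 0, so "higher" means higher relative to the bulk. The DMSO array lay on another slide than both flavopiridol arrays, so slide and drug cannot be told apart here. With the reactivated Th2 array of 50 nM JQ1, from the remaining slide, in place of DMSO, 1134 genes were higher and 2537 lower. In bulk RNA, fewer cells of a type and less RNA per cell cannot be told apart.

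The Th2 markers were high on the DMSO array, with log2 ratios of 8.02 for Il4, 3.66 for Il5, 4.85 for Il13, 2.64 for Gata3 and 3.91 for Il1rl1, the receptor of IL-33. The Th1 genes Ifng, Tbx21 and Cxcr3 were also above naive cells there, at 6.20, 4.64 and 4.11. The remaining Th1 marker, Il12rb2, was not above naive cells. On the reactivated Th1 array of 6 hr, Ifng stood at 8.59, Tbx21 at 6.11, Gata3 at -0.33, Il5 at 0.46, Il4 at 3.07, Il13 at 3.71 and Il1rl1 at 5.51. Of the 5 Th2 markers, 4 were thus higher on the Th2 array and Il1rl1 was not, and Th1 genes were not absent from the Th2 array. The summed Cy3 level (log2) of 4 T cell markers was 16.2 with DMSO, 17.2 at 1 µM and 17.3 at 10 µM. B cell markers, 4 of 4 above background with DMSO and at 1 µM and 3 of 4 at 10 µM, summed to 11.3, 9.69 and 9.99. Of 5 myeloid markers 4, 3 and 3 were above background, with sums of 13.9, 13.7 and 13.1, and of 4 CD8 and NK cell markers 1 was above background on each array, with sums of 8.28, 8.65 and 8.71. Their part in the results below was not tested.

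All 8 Th2 cytokine genes of the list were lower at both doses, with a median change of -3.59 against -0.23 over all genes. Il4 stood at 8.02 with DMSO, 2.83 at 1 µM and 3.62 at 10 µM, a mean change of -4.80. Il13 went from 4.85 to 0.60 and 0.81, and Il5, the eosinophil growth factor, from 3.66 to 0.56 and 0.69. These 3 neighbours in the cytokine cluster fell at either dose, and of them Il4 alone stayed more than 4-fold above naive cells. Il9, a mast cell growth factor, went from 6.15 to 0.47 and 0.53. Il10, an inhibitory cytokine, went from 2.33 to 0.32 and 0.44, and Il24 from 2.83 to -0.22 and 0.49. Il6 went from 2.48 to 0.20 and -0.02, not well above background at either dose, at least 3.71-fold lower. The list's dose dependence lay in Il31, the itch cytokine, with 6.00, 2.34 and -0.00, which was at least 64.2-fold lower at 10 µM.

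In the remaining activation cytokines 10 of 16 genes described were lower, none was higher, and the median change was -2.35. Il2, the T cell growth factor, stood at 7.36, 2.22 and 0.33 on the DMSO, 1 µM and 10 µM arrays. Il3 stood at 8.42, 3.29 and 0.48, and Csf2, which encodes GM-CSF, at 6.77, 2.39 and 0.00. All 3 were lowered at 1 µM yet remained above naive cells, and at 10 µM lay within 0.48 of the naive level. Il2 and Csf2 were not well above background at 10 µM and were at least 131-fold and 99.6-fold lower there. The reference signal of very bright spots rose with the sample, by a Cy5 range of 2.37 for Il2, 1.57 for Il3 and 2.24 for Il31 (log2) over the 3 arrays, so their ratios understate the drop. Areg, an epidermal growth factor receptor ligand of type 2 immunity, stood at 5.96, 4.05 and 1.12, and Il21 at 4.48, 2.77 and 0.24. Il17f was at 4.65, 2.07 and 0.11.

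Ifng, the Th1 cytokine, stood at 6.20 with DMSO and at 0.09 and -0.17 with flavopiridol, not well above background at either dose and at least 62.3-fold lower. Tnf was not called, with 3.50, 3.99 and 1.11, because it was at the DMSO level at 1 µM and lower at 10 µM only. Lta, its neighbour in the genome, was not called either, at 1.76, 0.93 and 1.52. Csf1 stood at 3.79, 1.83 and 2.14 and Tgfb1 at 1.95, 0.71 and 0.73, lower at both doses. Relative to all genes, Csf1 and Areg turned to 0.25 and 0.0586 with the software's ratio.

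**Figure D1:**
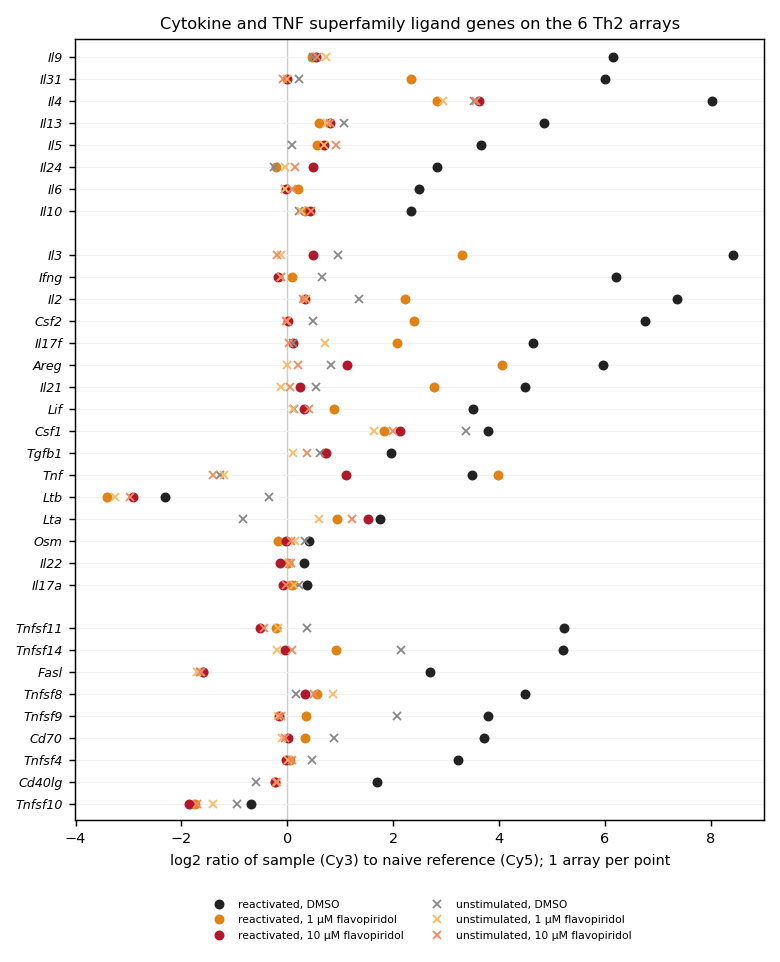
Log2 ratio of sample to naive reference (horizontal axis) for each cytokine and TNF superfamily ligand gene described, 1 array per point, with no error since each condition had 1 array. Circles are reactivated and crosses unstimulated Th2 cells. The 8 Th2 cytokines sit between 2.33 and 8.02 with DMSO, and the flavopiridol circles lie to the left, with orange circles (1 µM) apart from red (10 µM) for Il2, Il3, Csf2 and Il31.

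The TNF superfamily ligands, membrane and soluble signals from T cells to other immune cells, were lower for 9 of 9 genes, with a median change of -3.69. Tnfsf11, which encodes RANKL, stood at 5.22 with DMSO and at -0.21 and -0.51 with drug, not well above background on either and at least 43.0-fold lower. Fasl, the death ligand, went from 2.69 to -1.60 and -1.59, at least 19.4-fold lower. Cd70 was at least 10.4-fold lower. These ligands were at background with either dose, and so was Cd40lg, the signal of T cell help to B cells, at 1.70, -0.23 and -0.24 (at least 3.31-fold lower). Tnfsf14 kept a dose step, with 5.20, 0.91 and -0.05. Tnfsf10, which encodes TRAIL, moved least, from -0.68 to -1.74 and -1.86, and turned to 0.0822 relative to all genes with the JQ1 array as control.

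Of 13 chemokine genes 11 were described, 8 were lower and none was higher. Ccl9 and Ccl22, among the lower ones, turned to 0.15 and 0.0220 relative to all genes with median or spike-in centring. Ccl4 stood at 9.20, 6.19 and 1.11, Ccl3 at 4.29, 0.67 and 0.07, and Ccl5 at 4.74, 0.45 and 0.53. Xcl1 went from 4.16 to -0.05 and 0.06 and was at least 17.2-fold lower. Ccl1, a ligand of the Th2 receptor CCR8, went from 2.64 to 0.06 and 0.12 as a ratio. Its Cy5 reading ranged over 8.25 (log2) on these 3 arrays, so the ratio does not measure the drop. Cxcl10, an interferon-induced chemokine, and Cxcl2 were not called. Cxcl10 stood at 4.45 with DMSO, 7.55 at 1 µM and 3.80 at 10 µM, above DMSO at the lower dose and near it at the higher. Cxcl2 was at 2.56, 2.34 and 0.39.

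Among receptors typical of Th2 cells 8 of 11 genes were described. Of these 4 were lower (50%) and none was higher, against 21.4% and 8.81% of all genes. Il1rl1 stood at 3.91, 2.14 and 2.15, Ccr4 at 2.82, 0.42 and 0.39, Ccr8 at 1.71, 0.12 and 0.27, and Il1r2, the decoy receptor of IL-1, at 3.37, 1.40 and 1.22. Il4ra, through which IL-4 and IL-13 signal, was not called, at -0.52, -0.80 and -0.13. The drop in these receptors was close at both doses.

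Costimulatory and inhibitory receptors were lower for 8 of 16 genes, higher for 1, and had a median change of -1.23. Pdcd1, which encodes PD-1, went from 4.83 to -0.80 and -0.93 and was at least 49.4-fold lower. Havcr2, which encodes TIM-3, went from 4.78 to 0.14 and 0.20, at least 23.9-fold lower. Tnfrsf4, the receptor OX40, went from 4.66 to -0.76 and -0.40, and Slamf1 from 3.95 to -0.08 and 0.17. In contrast, Il2ra, the high-affinity chain of the IL-2 receptor, was higher, at 5.44 with DMSO and 6.68 and 6.63 with drug, but its mean change was -1.13 with spike-in centring. Icos (2.04, 1.80 and 1.86) and Ctla4 (1.22, 1.28 and 1.69) were not called. Cd69, an early activation marker, was at 1.09 and 1.35 with DMSO and 1 µM and at -1.16 with 10 µM. The receptors of this list thus covered the range from at least 49.4-fold lower to 2.32-fold higher.

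Of 16 genes of T cell receptor signalling 3 were lower and 1 was higher, a share near that of all genes. The kinase gene Zap70 (0.17, -2.37 and -1.83) and the adaptor gene Lcp2 (0.37, -1.16 and -1.06) were among the lower ones. Cd4 was higher, at -2.43, -1.17 and -1.11 (-0.43 with spike-in centring). The CD3 chains Cd3d, Cd3e and Cd3g, with mean changes of 0.85, 0.87 and 1.05, were not called. Genes of naive cells and of homing held 1 lower, Foxo1 (-1.55, -2.71 and -3.40), and 1 higher, S1pr1 (-6.03, -4.61 and -4.63), the receptor for exit from lymph nodes, among 10 described. With spike-in centring the mean change of S1pr1 was -1.00. Ccr7 and Tcf7 were not called, and were far below naive cells on all 3 arrays, at -4.81, -5.75 and -6.38 and at -4.66, -4.10 and -4.05.

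Among transcription factors of the Th2 programme 8 of 13 genes described were lower, none was higher, and the median change was -1.50. Gata3 stood at 2.64 with DMSO and at -0.88 and -0.89 with drug, below naive cells at both doses. Irf4, which binds with AP-1 factors at cytokine genes, went from 5.21 to 0.25 and 0.04. Gfi1, a repressor that supports Th2 growth, went from 3.21 to -1.34 and -0.35, and Stat5a from 2.56 to -1.46 and -0.96. These 4 genes and Bhlhe40 (4.53, 1.32 and 0.60) lost at least 8-fold at both doses. Batf (1.20, -1.55 and -1.05), Nfil3 (4.64, 2.83 and 3.48) and Rbpj (2.90, 1.42 and 1.38) were lower by less. Maf (0.79, 0.30 and 0.43), Stat6 (-0.74, -2.45 and -1.67), which carries the IL-4 signal, Stat5b, Pparg and Junb were not called. Of the 12 Th1 and Th17 genes described 5 were lower (41.7%) and 2 were higher (16.7%), against 21.4% and 8.81% of all genes. Tbx21 (4.64, 0.86 and -0.06) and Cxcr3 (at least 21.4-fold) were among the lower ones. Il12rb2, the IL-12 receptor chain, was higher, at -0.20, 2.45 and 2.32, and stayed above DMSO with spike-in centring, by 0.69. Il18r1, a chain of the IL-18 receptor, was higher too, at -3.73, -2.51 and -2.30, but was called lower with spike-in centring (-1.06).

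Immediate early transcription factors split. Of 21 genes described 10 were lower and 5 were higher, more of them higher than among all genes (8.81%). Fos stood at -0.77 with DMSO, 3.19 at 1 µM and 2.47 at 10 µM. Egr4 stood at 5.29, 9.31 and 8.95, the highest ratio of any gene of these lists on the drug arrays. Fosb (2.91, 4.91 and 3.98), Jun (-1.43, 0.19 and -0.04) and Ier2 (-0.04, 1.00 and 1.82) were also higher. These 5 genes include AP-1 subunits of both the Fos and the Jun families. With spike-in centring the mean changes of Egr4 and Fos stayed above DMSO, at 1.43 and 1.38, and those of Fosb, Jun and Ier2 turned to -0.87, -0.26 and -0.90. In contrast, Fosl1 (3.86, 1.22 and -0.02), Fosl2 (3.20, 0.95 and -0.13) and Jund (-0.81, -3.44 and -3.59), AP-1 subunits too, were lower. Myc, the growth regulator, went from 3.27 to -0.86 and -1.39.

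The median change of the immediate early genes was -2.33 at 10 µM against -0.88 at 1 µM, and relative to all genes the list median turned to 0.40 over both doses with the software's ratio. Of the list, 9 of the 21 genes were at least 2-fold lower at 10 µM than at 1 µM. Nr4a2 stood at 5.26, 4.38 and 0.85 and was not called, since 1 µM changed it less than 2-fold. Nr4a1 stood at 3.69, 1.09 and -0.93, Egr2 at 4.05, 1.71 and -0.82, and Atf3 at 4.24, 3.24 and 0.49. Relative to all genes Atf3 turned to 0.40 with the software's ratio. Egr1 (2.51, 3.92 and 2.02) and Egr3 (0.83, 1.44 and 1.62) were not called. Within the Egr family, Egr4 was thus higher and Egr2 lower.

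**Figure D2:**
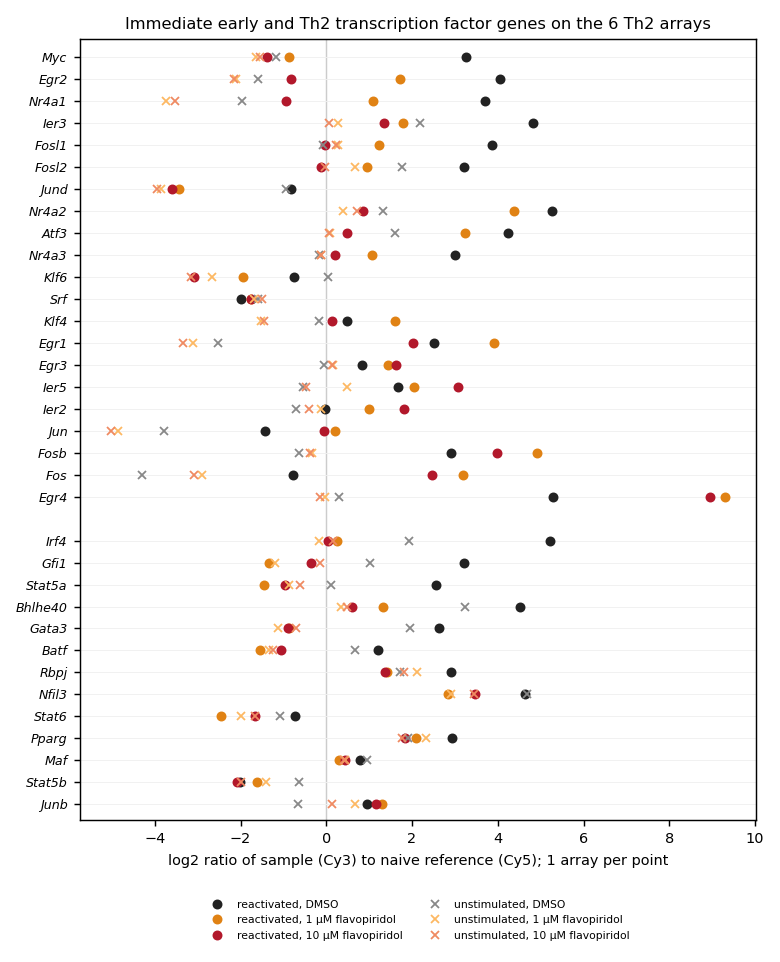
Log2 ratio of sample to naive reference (horizontal axis) for immediate early and Th2 transcription factor genes, 1 array per point, circles for reactivated and crosses for unstimulated Th2 cells. The orange and red circles of Egr4, Fos, Fosb, Jun and Ier2 lie to the right of black (DMSO), and those of Gata3, Irf4, Gfi1, Stat5a and Myc to its left. Fosb, Jun and Ier2 turned below DMSO with spike-in centring.

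NF-kB genes were lower for 10 of 13 described, none was higher, and the median change was -2.17. Rela, the main transactivating subunit, stood at 1.71, -3.22 and -2.04, Nfkb1 at 2.68, 0.22 and -0.52, and Nfkb2 at 2.67, -0.53 and -0.71. Among the inhibitors Nfkbia (1.63, 0.05 and -1.72), Nfkbib (1.23, -1.57 and -1.64) and Tnfaip3 (1.49, -0.39 and -0.97), which encodes A20, were lower too. Nfkbia was 3.40-fold lower at 10 µM than at 1 µM. Nfkbid (1.98, 1.78 and -1.03) was lower at 10 µM only and Nfkbiz (-0.93, -0.07 and -0.47) was not called. NFAT and calcineurin genes held 2 lower of 9 (22.2%, near the 21.4% of all genes), Nfat5 (1.21, 0.11 and -0.05) and Rcan1, which was at least 2.67-fold lower. Nfatc1 was not called (-1.77, -1.81 and -2.80).

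Feedback genes of cytokine signalling were lower for 7 of 11. Cish, induced by STAT5, stood at 4.45, 0.88 and 1.70, Socs1 at 1.89, -0.36 and -1.02, and the kinase genes Pim1 and Pim3 at 2.40, 1.05 and 0.30 and at 1.76, 0.12 and -0.40. Socs2 was not called, at 4.21, 3.98 and 5.21, and Socs3 hardly moved. Of 16 phosphatase and mRNA decay genes 6 were lower (37.5%) and 1 was higher (6.25%), against 21.4% and 8.81% of all genes. Dusp4, a MAP kinase phosphatase, went from 5.53 to -0.08 and -0.16, at least 39.7-fold lower, Dusp2 from 1.19 to -3.34 and -5.41, and Dusp6 from 2.67 to -1.62 and -2.82. Btg1, an antiproliferative gene, went from -0.37 to -4.20 and -5.67. Tob1, of the same family, was higher, at -0.37, 2.15 and 1.42 (-0.25 as a mean change with spike-in centring). Zfp36, which encodes the decay factor tristetraprolin, and Dusp1 were not called, with mean changes of 0.78 and 0.79.

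Of 21 genes of the drug's target P-TEFb and of elongation described, 6 were lower (28.6%) and 1 was higher (4.76%), shares near those of all genes (21.4% and 8.81%), with a median change of -0.97. Cdk9 stood at 0.46, -1.10 and -0.54, Cdk7 at 1.41, -0.57 and -0.67 and Cdk12 at 0.47, -0.83 and -1.00, and all 3 kinases were lower. Hexim1, which holds P-TEFb inactive in its complex with 7SK RNA, was higher, at -1.41, 0.73 and -0.28, whereas Mepce, which caps 7SK, was lower, at -0.62, -2.43 and -2.15. With spike-in centring Hexim1 changed by -0.76. Ell2, a subunit of the super elongation complex, was at least 7.70-fold lower. Ccnt1 (-0.18, 0.31 and -0.59) and Brd2 (0.63, 1.49 and 1.32) were not called.

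Among survival and death genes 6 of 17 described were lower (35.3%) and 2 were higher (11.8%), against 21.4% and 8.81% of all genes. Birc5 (5.24, 5.91 and 5.79) was not called. Bcl2a1d went from 4.14 to -0.46 and -0.40, Bcl2l1, which encodes Bcl-xL, from 2.94 to 0.25 and -0.08, and Mcl1 from -1.24 to -2.60 and -3.02. Bcl2, another protector, was higher, at -0.34, 0.79 and 1.44, and so was Bad, at -0.56, 0.81 and 1.11, though both turned with spike-in centring, to mean changes of -0.85 and -0.92. In the p53 target list, with shares near those of all genes, 4 of 13 (30.8%) were lower and 1, Zmat3 (-1.00, 0.83 and 0.43, or a mean change of -0.78 with spike-in centring), was higher. Perp, a membrane protein gene, went from 7.19 to 0.19 and 0.11, not well above background with drug. Cdkn1a, which encodes p21, was not called, at 4.64, 4.86 and 2.75. Heat shock genes were lower for 9 of 14. Hspa8 went from 0.76 to -4.24 and -4.65 and Hspa5, the chaperone of the endoplasmic reticulum, from 2.85 to 0.16 and -1.84. Cryab, a small heat shock protein gene, was higher, at 0.31, 4.96 and 4.66, and by 2.01 with spike-in centring.

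Genes for glucose and amino acid uptake were lower for 8 of 14, with Slc2a1, the glucose transporter GLUT1, at 1.24, -2.21 and -1.85 and Slc3a2 at 1.69, -0.70 and -0.48. Cell division genes were lower for 13 of 21, among them Aurka (3.74, 0.67 and 0.78), Cdk1 (4.63, 1.38 and 2.73) and Ccnb1 (4.53, 1.24 and 2.62). For Cdk1 and Ccnb1 the 10 µM array lay above the 1 µM array. Mki67 (5.39, 4.54 and 4.90) was not called. Ccnd3, which encodes cyclin D3, was higher, at -2.29, -0.97 and -0.43 (-0.10 as a mean change with spike-in centring). Proteasome subunits were lower for 23 of 37 and higher for none, with Psmd12 at 1.58, -2.76 and -1.36 and Psmb5 at 0.74, -1.68 and -1.94.

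Of 81 cytosolic ribosomal protein genes described 1 was lower and 2 were higher, with a median change of 0.14. Respiratory chain and ATP synthase genes were lower for 10 (11.2%) and higher for 8 (8.99%) of 89, with a median of -0.02. Their share of higher genes was near the 8.81% of all genes, and their share of lower genes was below the 21.4% of all genes. The Zfp zinc finger genes were lower for 51 (18.5%) and higher for 8 (2.91%) of 275, a share of lower genes near the 21.4% of all genes. In contrast, replication-dependent histone genes were higher for 19 of 39 and lower for none, with a median of 1.09. H1f1 stood at 2.10, 6.01 and 6.43 and H4c9 at 1.43, 4.70 and 5.03. Histone genes are near-identical copies, so a probe may read several of them. Small nucleolar and nuclear RNAs were higher for 5 of 6, with Rnu3b1, a U3 RNA of ribosomal RNA processing, at -1.10, 3.30 and 3.33. With arrays centred on spike-ins, 13 of the 39 histone genes were lower and 1 higher, 2 of the 6 small RNAs were higher, and the members of all 27 lists held 5 higher and 626 lower. The Th2 cytokines and TNF superfamily ligands were lower for 8 of 8 and 9 of 9 genes by that scaling too, and the ribosomal protein genes for 15 of 81, or for 79 of 81 where loess was followed by a shift to the spike-ins.

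**Figure D3:**
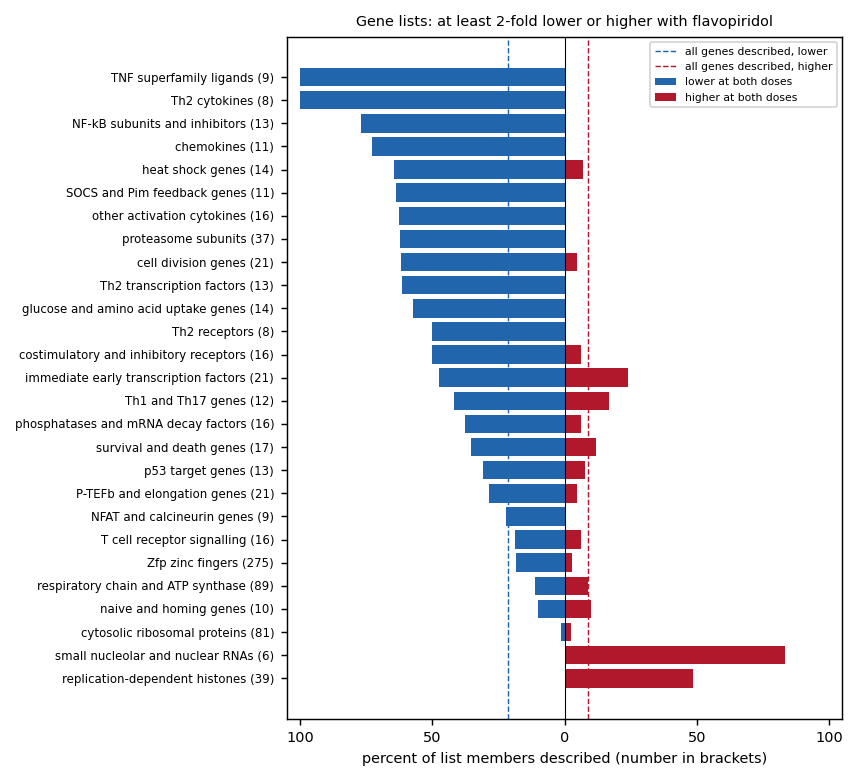
Share of the described members of each list that were at least 2-fold lower (left, blue) or higher (right, red) at both doses, in percent, with the shares over all genes described (21.4% and 8.81%) as dashed lines. TNF superfamily ligands and Th2 cytokines reach the left end, and histones and small nuclear RNAs lie on the right, the histones with 13 lower and 1 higher of 39 under spike-in centring.

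Among genes whose Cy5 reading stayed within 1 log2 unit, the 10 named for the largest mean fall of the ratio were Perp, Ifng, Cd83, Mst1r, Pdcd1, Olr1, Il9, Dusp4, Pdcd1lg2 and Plek. Perp, Ifng, Mst1r, Pdcd1, Olr1 and Dusp4 were not well above background on either drug array, so their falls are bounds and have no order among the 10. Cd83, an activation marker, went from 5.90 to -0.21 and 0.02. Pdcd1lg2, the PD-1 ligand PD-L2, went from 6.36 to 1.34 and 0.10, and Plek, a protein kinase C substrate gene, from 6.19 to 0.57 and 0.64. Mst1r, a receptor kinase gene, and Olr1, a scavenger receptor gene, were not well above background with drug and were at least 50.0-fold and 39.1-fold lower. The 10 largest rises were Igfbp4, Cryab, Rnu3b1, Drc1, Cnn2, H1f1, Myo6, Opn1sw, Rab37 and Adamtsl4. Igfbp4, which binds insulin-like growth factors, stood at -2.27, 2.33 and 2.38, and Cnn2, an actin-binding calponin gene, at -4.30, -0.06 and -0.05. Cnn2 and Rab37 (-4.53, -0.66 and -0.72) were far below naive cells with DMSO and close to them with drug. Myo6, an unconventional myosin, stood at 1.41, 5.40 and 5.51. Opn1sw, a cone pigment gene, was at background with DMSO, so its rise is a bound and has no order among the 10. With drug it stood at 5.25 and 2.41, the widest dose difference among the rises. With spike-in centring the mean changes of these 10 genes were 1.35 (Adamtsl4) to 2.78 (Rnu3b1), and Opn1sw was not called (0.81 at 10 µM).

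Of the 12581 genes 94.4% differed less than 2-fold between 1 and 10 µM, 320 (2.54%) were at least 2-fold lower at 10 µM than at 1 µM and 388 (3.08%) at least 2-fold higher. With offset 0 these counts were 783 and 1153, and with the software's ratio 1157 and 1550. The SD of the dose difference was 0.50 (log2). For comparison, the Cy5 reference signal of the 3 arrays differed with an SD of 0.12 to 0.24 between pairs. In the activation cytokines 7 of 16 genes were at least 2-fold lower at 10 µM than at 1 µM, in the Th2 cytokines 1 of 8, and in the TNF superfamily ligands none of 9. Members at background at both doses, such as Tnfsf11, Fasl, Cd70, Cd40lg and Il6, could not show such a step. With 1 array per dose, the difference between doses has no replicate check either.

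**Figure D4:**
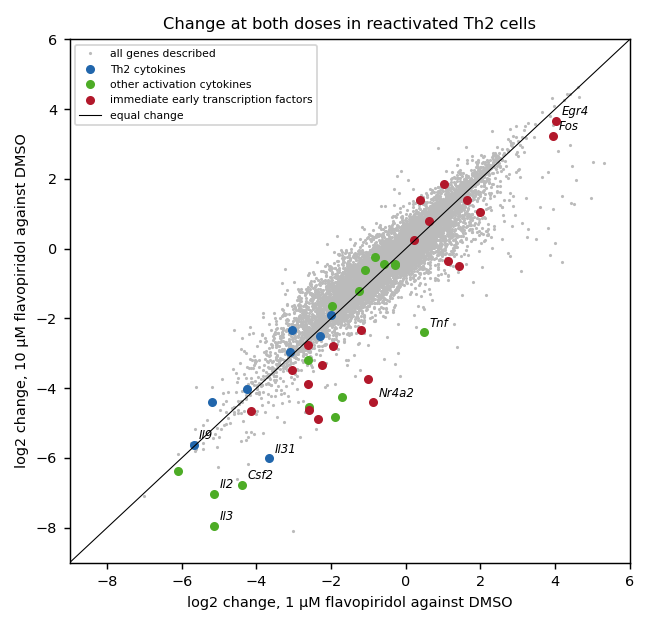
Log2 change from DMSO at 1 µM (horizontal) against that at 10 µM (vertical), 1 point per gene, with the line of equal change. Most genes lie along the line, and Il2, Il3, Csf2, Il31, Tnf and Nr4a2 lie below it, lower at 10 µM.

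Genes that respond to reactivation were chosen on arrays of Th1 cells, with no Th2 array, as at least 2-fold higher in reactivated than in unstimulated cells with DMSO at both 6 and 24 hr. Of 849 such genes 843 were described, and 696 of them (82.6%) were lower with flavopiridol in reactivated Th2 cells and 4 were higher, against 21.4% and 8.81% of all genes. Their median log2 ratio in Th2 cells was -0.10 unstimulated and 1.79 reactivated with DMSO, and -0.19 and -0.11 in reactivated cells with 1 and 10 µM. In unstimulated cells with the same doses it was -0.18 and -0.08. Of the 235 whose ratio in Th1 cells was 4-fold or more above unstimulated, 214 were lower. Genes at least 4-fold higher in unstimulated Th2 than in unstimulated Th1 cells behaved differently. Of 27 described 4 were lower and 8 were higher, with median ratios of 2.25 with DMSO, 1.73 and 2.12. At 2-fold, 23 of 192 were lower and 71 (37.0%) higher. The median ratio of these 192 was 1.04 in unstimulated and -0.17 in reactivated cells with DMSO, so the DMSO level was already reduced after reactivation. With 1 and 10 µM it was 0.24 and 0.27 in reactivated cells and 0.28 and 0.29 in unstimulated cells. With spike-in centring 98 of the 192 were lower and 1 higher, and of the 27, 15 were lower and none higher.

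The unstimulated Th2 arrays place the genes that remained. Each reactivated array was set against the unstimulated array of the same treatment, DMSO or the same flavopiridol dose. Th2 cytokines were at least 2-fold above their unstimulated level for 8 of 8 genes with DMSO and for none at both flavopiridol doses, while of the 21 immediate early genes 15 were so with DMSO and 12 at both doses. Of all genes described 12.1% were so with DMSO and 0.580% at both doses. Il4 at 2.83 and 3.62 stood beside 2.93 and 3.57 in unstimulated cells with drug, and Egr4 at 9.31 and 8.95 beside -0.03 and -0.15.

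The same drug effect was then tested outside the comparison, on arrays of which some also served above. Over unstimulated Th1, reactivated Th1 and unstimulated Th2 cells (9 arrays, limma with 4 residual degrees of freedom and Benjamini-Hochberg adjustment), 4440 of 12052 genes were lower (36.8%) and 1969 higher (16.3%). Of 2588 genes lower in reactivated Th2 cells and tested here, 1883 (72.8%) were lower in those contexts and 18 higher. Of 1099 genes higher in reactivated Th2 cells, 665 (60.5%) were higher there and 15 lower. In these contexts too every DMSO array lay on another slide than the flavopiridol arrays, so slide and drug cannot be told apart here either. With slide as a random block, 370 of the 2588 (14.3%) and 81 of the 1099 (7.37%) were called in the same direction and none in the opposite, against 3.70% and 0.755% of all genes. The estimates had the same sign for 93.3% and 85.4%. Of the Th2 cytokines 6 were tested in these contexts and none was called in either direction over the 3 contexts together. In reactivated Th1 cells alone Il4 stood at 3.07, 0.19 and 0.21 and Il13 at 3.71, 0.42 and 0.23, both not well above background with drug. Of the 12 NF-kB genes tested 11 were lower.

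Whether the effect differed between reactivated and unstimulated Th2 cells was tested as a difference of effects, in a fit of 12 arrays whose spread comes from the dose arrays alone, with 3 residual degrees of freedom and the lone DMSO arrays assumed to vary like them. Slides cancel in this contrast. By limma with Benjamini-Hochberg adjustment, 2625 genes (21.1%) had a higher effect in reactivated cells and 2209 (17.8%) a lower one, of 12440 tested. The balance turned with spike-in centring, to 13.0% higher and 25.1% lower. The largest negative differences were those of Il9 (-5.82, SE 0.46, limma adjusted p 0.000364), Bdh2, Ifng, Il3 and Csf2. Ifng, Il3 and Csf2 were well above background on 1 of the 3 unstimulated Th2 arrays, so their differences rest on values at background. With the software's ratio Il9, Bdh2, Il3 and Csf2 kept the sign and missed the threshold. Il9 was at 0.48 in unstimulated cells with DMSO and at 0.73 and 0.56 with drug, near the naive level on all 3 arrays and well above background on 2 of them. Bdh2, a dehydrogenase gene, went from 6.43 to 2.20 and 0.25 in reactivated cells and stood at 0.45, 1.15 and 0.45 in unstimulated cells.

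The largest positive differences belonged to Ddit4, S1pr1, Txnip, Ier5l and Cyp2s1. For Ddit4, a stress-induced inhibitor of mTORC1, the difference was 6.30 (SE 0.85, limma adjusted p 0.00191). It went from 0.22 to -5.35 and -5.40 in unstimulated cells and stood at -3.68, -2.11 and -3.83 in reactivated cells, where it was already low with DMSO. S1pr1 and Txnip, the glucose-regulated thioredoxin inhibitor, had the same pattern, with Txnip at -3.40, -1.93 and -3.60 reactivated and 0.27, -4.31 and -4.21 unstimulated. Ier5l had opposite effects, from 1.36 to 4.23 and 4.40 in reactivated cells and from 2.44 to 0.20 and 0.28 in unstimulated cells. Of the 10 naive and homing genes 8 had a higher effect in reactivated cells and none a lower one, against 21.1% and 17.8% of all genes tested. For Gata3 the difference was -0.65 (SE 0.22, limma adjusted p 0.0536), not called. Its level in unstimulated cells was 1.95, -1.13 and -0.72, so it was low with drug in either state.

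Against reactivated Th1 cells of 6 hr, by the same fit, 1158 genes (9.31%) had a higher and 1421 (11.4%) a lower effect in reactivated Th2 cells. These shares depend on the scaling, with 0.860% higher and 54.8% lower with spike-in centring, and on the values used, with 0.627% and 0.973% for the software's ratio. Slides do not cancel here, so slide and cell type cannot be told apart, and the counts were 332 and 498 without the reactivated Th1 array of 10 µM and 429 and 642 without that of 1 µM. Ifng differed by -5.58 as a ratio, which does not measure the difference. In reactivated Th1 cells its ratio stood at 8.59 with DMSO and 7.92 and 7.94 with drug, while its Cy3 signal went from 19.4 to 16.2 and 15.9 (log2), and in Th2 cells it was not well above background with drug. Gbp2 and Igtp, interferon-induced GTPase genes, differed by -4.50 and -4.21. Gbp2 was at 2.34, -2.15 and -2.03 in Th2 cells and at 2.45, 2.50 and 2.52 in Th1 cells. Il9 differed by -5.70, and in Th1 cells it was near the naive level with DMSO and with drug, at 0.46, -0.00 and 1.01. It was well above background on 2 of these 3 Th1 arrays. With the software's ratio the Il9 difference missed the threshold. Esm1 differed by -4.25. It was at 1.54, 0.43 and 0.70 in Th2 cells, not called, and at 1.94, 5.07 and 5.36 in Th1 cells. In Th2 cells it was not well above background at 1 µM, so its difference rests partly on a value at background.

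In the other direction, Ramp3, a receptor activity-modifying protein gene, differed by 4.84 (SE 0.17, limma adjusted p 0.000404), from -0.04, 0.04 and 0.04 in Th2 cells against 2.23, -2.58 and -2.49 in Th1 cells. Ddit4, C2cd4b, Ccl9 and Ccr7 also had positive differences, of 3.65, 3.60, 3.59 and 3.48. Ccl9 was not well above background on either reactivated Th2 drug array, and C2cd4b on only 1 of the 3 reactivated Th1 arrays, so their differences rest on values at background. The Ccl9 difference turned to -0.71 with the software's ratio (limma adjusted p 0.557), and that of Ddit4 missed the threshold there. Ccr7, the lymph node homing receptor, was lowered further in Th1 cells, from -2.12 to -6.85 and -6.87. Of the 37 proteasome genes tested, 29 had a lower effect in Th2 cells and none a higher one, and of the 89 respiratory chain genes 22 had a lower and 1 a higher effect. Of the 39 histone genes 17 had a higher effect in Th2 cells and none a lower one. Over all genes tested the shares were 9.31% higher and 11.4% lower. With spike-in centring they were 0.860% and 54.8%, and the list counts were not repeated under that scaling. Slide and cell type cannot be told apart in these counts.

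**Figure D5:**
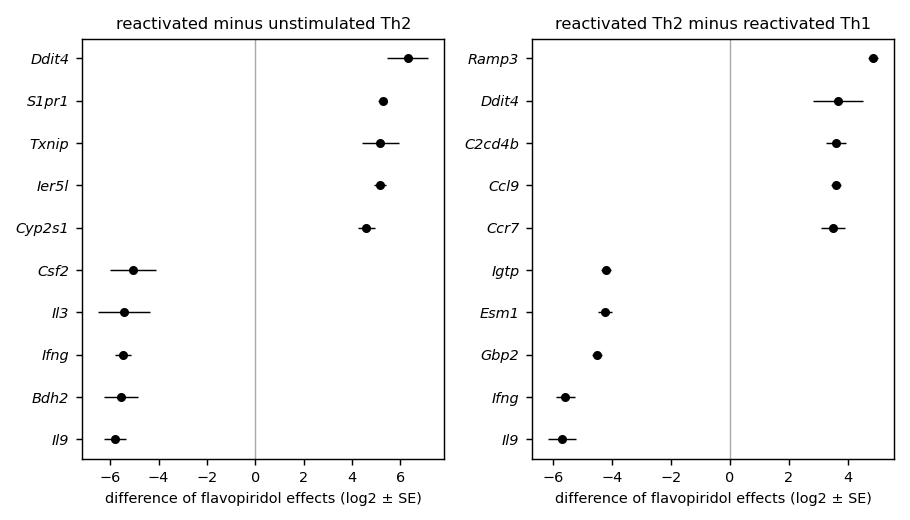
Difference of the flavopiridol effect (mean of both doses, log2, ± SE from limma over 12 arrays) for the 5 genes largest in each direction, reactivated minus unstimulated Th2 cells on the left and reactivated Th2 minus reactivated Th1 cells on the right. Il9 and Ifng are among the negative differences in both panels and Ddit4 among the positive ones in both, with Ramp3 at the positive end on the right. The Ifng values with drug in Th2 cells were at background.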

How the data were processed

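RNA was measured on dual-colour Agilent arrays, 24 in all, on 3 slides of 8. The deposited scanner files held spot and background intensity in both channels and the software's log10 ratio of Cy5 over Cy3, per the file headers from Agilent Feature Extraction 10.7.1.1 on an mm9 grid. A series table that the authors deposited gives log2 ratios (sample against naive cells) of 34710 of the 55681 probes, with its normalization not given in the sources used here. It correlated with the values computed here at r of 0.981 to 0.996. Median spot intensities entered normexp (offset 50) and within-array loess in limma 3.58.1 (R 4.3.3). The design had named mean intensities. Control spots and outlier-flagged spots were left out. Loess sets the bulk of genes near 0 on each array. The dye direction came from the labels.

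Of the probes 26437 carried 1 of 20028 symbols, through a RefSeq table used for names or the files' own names, and a gene was read by its brightest probe. Genes entered where the software marked Cy3 as well above background with DMSO or at both doses. A gene was called when it changed at least 2-fold in the same direction at both doses, with no test. Tests in other contexts used lmFit and eBayes with an adjusted p below 0.05, for genes whose Cy3 signal passed that filter on 3 or more of the fitted arrays. Those p-values measure the spread between arrays, which may be technical. Named genes were the 10 largest rises and falls (no Gm, Rik or LOC names, Cy5 within 1 log2 unit over the 3 arrays, Cy3 above background), the 5 largest in each direction in each contrast, and list members. The comparison, its members and the 27 lists were chosen with earlier results of these data known.

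Alternatives covered centring, background offset, the software and deposited ratios, Cy3 alone, probe averaging, filters, fold, slide and each array left out. The number of arrays limits the precision. Over 276 array pairs the reference channel varied with an SD of 0.18 (log2). Values of 2 list members are not reported here.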

Additional observations from a re-analysis of the deposited data

Results flagged for a closer look

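The effect of flavopiridol was set against that in other contexts, each with 1 DMSO array, so the spread in the test comes from the dose arrays alone. Between reactivated and unstimulated Th2 cells 2625 genes were higher and 2209 lower, and between reactivated Th2 and reactivated Th1 cells 1158 were higher and 1421 lower (limma, Benjamini-Hochberg adjusted). With spike-in centring the shares were 13.0% higher and 25.1% lower for the first contrast and 0.860% and 54.8% for the second. The second counts were 332 and 498 without the reactivated Th1 array of 10 µM, and slide and cell type cannot be told apart there. The Th2 counts rest on DMSO arrays of unclear time, and the part of time in them was not tested.

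Reactivated against unstimulated Th2 cells, the difference of effects (log2) was 6.30 for Ddit4, 5.27 for S1pr1, 5.17 for Txnip, 5.15 for Ier5l and 4.59 for Cyp2s1. It was -5.82 for Il9, -5.55 for Bdh2, -5.48 for Ifng, -5.42 for Il3 and -5.08 for Csf2. Reactivated Th2 against reactivated Th1 cells, it was 4.84 for Ramp3, 3.65 for Ddit4, 3.60 for C2cd4b, 3.59 for Ccl9 and 3.48 for Ccr7. It was -5.70 for Il9, -5.58 for Ifng, -4.50 for Gbp2, -4.25 for Esm1 and -4.21 for Igtp. For Ifng the values with drug in reactivated Th2 cells were at background, and its ratio in Th1 cells did not follow its Cy3 signal. Il3 and Csf2 in unstimulated Th2 cells, Ccl9 and Esm1 in reactivated Th2 cells and C2cd4b in reactivated Th1 cells were likewise at background on some or all drug arrays. Il9 was well above background on 2 of the 3 unstimulated Th2 and 2 of the 3 reactivated Th1 arrays. The differences of such genes have no order.

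Probes that the comparison does not use were read as well. Of 16194 probes named only by a genome position, 5941 passed the same filter. Of these 5941, 640 were at least 2-fold higher and 327 lower at both doses. Among 12581 named genes 1108 (8.81%) were higher and 2694 (21.4%) lower. The share of higher probes was thus near that of named genes, and the share of lower probes was below it. These probes were read after loess only, and spike-in centring was not applied to them.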

How the results depend on the processing

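No paired analysis was possible because each condition had 1 array and the labels carry no replicate numbers. Genes higher and lower in reactivated Th2 cells numbered 85 and 6145 with median centring, 13 and 9607 with spike-in centring, 38 and 9998 where loess was followed by a shift to the spike-ins, 2082 and 4068 at 1.5-fold and 174 and 847 at 4-fold, and the higher ones 1797 with offset 0 and 2112 with the software's ratio. Members of the lists numbered 12 and 451, 5 and 626, and 7 and 698 under the 3 scalings. In percent of genes tested, higher and lower genes in the other 3 contexts (16.3% and 36.8%) came to 2.80% and 64.5%, 0.514% and 84.5%, and 2.20% and 68.3% under those scalings, 0.755% and 3.70% with slide as a random block, and 12.3% to 19.6% and 29.7% to 41.8% with each array left out. For reactivated against unstimulated Th2 cells (21.1% and 17.8%), 11.7% were lower with median centring, 13.0% were higher and 25.1% lower with spike-in centring, 9.22% and 28.1% with the shifted loess, 13.8% and 9.98% with offset 0, 11.1% and 8.36% with the software's ratio, and 16.3% to 21.4% and 13.9% to 18.5% with an array left out. For Th2 against Th1 cells (9.31% and 11.4%) the values were 1.57% and 22.9%, 0.860% and 54.8%, 0.547% and 75.5%, 1.82% and 2.58%, and 0.627% and 0.973% in that order, and 2.67% to 10.9% and 4.01% to 13.9% with an array left out. The lowest came without the reactivated Th1 array of 10 µM, then 3.47% and 5.19% without that of 1 µM, and 5.58% or 5.59% higher and 7.69% or 7.71% lower without either unstimulated Th2 flavopiridol array. Genes at least 2-fold apart between doses, in alternatives chosen after seeing the data, were 184 higher at 10 µM with spike-in centring, 783 lower and 1153 higher with offset 0, and 1157 and 1550 with the software's ratio.

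Relative to the median of all genes, directions turned for the naive and homing list (-0.25 with median or spike-in centring), the immediate early list (0.40 with the software's ratio), Ccl9 (0.15) and Ccl22 (0.0220) with both centrings, Tnfsf10 (0.0822) with the JQ1 array as control, and Areg (0.0586), Csf1 (0.25), Atf3 (0.40) and Hk2 (1.13) with the software's ratio, as did the Ccl9 contrast with Th1 cells (-0.71, limma adjusted p 0.557). The cause was not tested. Slide as a random block could not be estimated for the 2 contrasts between contexts. Genes near background have bounds only.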
